A study of Drosophila melanogaster with 3 samples.

Results

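The peaks described here recurred in every replicate of a Prospero binding experiment but lay outside its optimal set. That set was obtained by a threshold on the irreproducible discovery rate. They were chosen by measured values: a peak of the list called on pooled reads qualified when it shared no base with a region of the optimal set and when its summit, the position of highest signal, lay within 150 bp of a summit in each of the 3 replicate lists. This rule found 8769 peaks, which were 29.2% of the 30000 pooled peaks and 41.7% of the 21039 pooled peaks outside the optimal set. They are called recurrent outside peaks below. The optimal set held 6215 peaks, which were also the 6215 strongest of the pooled list by signal. Each comparison with it below is thus also one of stronger with weaker peaks. A further 12270 pooled peaks outside it, called the other outside peaks, lacked a summit within 150 bp in at least 1 replicate. Another 2746 pooled peaks touched a region of the optimal set without being part of it and were left out. The experiment was chromatin immunoprecipitation and sequencing (ChIP-seq) on whole Drosophila melanogaster embryos aged 2 to 18 h, male and female together, of a transgenic line in which Prospero carries green fluorescent protein (GFP) at its C terminus. All 3 biological replicates form the single group, precipitated with an antibody to GFP per the sample descriptions. No other genotype, stage or treatment was compared, so nothing below is a response to a condition. Whole embryos mix tissues and ages, so the lists do not tell in which cells a peak arose.

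Prospero, a transcription factor with a homeodomain, is made in neuroblasts, from which the nervous system of the fly derives, and is handed at division to the daughter cell that will divide once more and differentiate. It is known for repressing genes of stem cell identity and of the cell cycle and for promoting neuronal differentiation, and it also acts in glia, sense organs and the gut. A ChIP-seq peak is a stretch of DNA recovered above background, and it may reflect direct contact with the sequence, contact through another protein, or DNA that is recovered readily whatever is precipitated. The peak lists cannot tell these apart.

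The sequences below show the Prospero core where recurrent outside peaks hold it, which is in 8.07% of them and in none of the 12 strongest. Peaks of 1 long autosomal arm, which holds 18.1% of the recurrent outside peaks, were left out of the choice of windows to print. Among the rest, the 8 strongest with the Prospero core AAGACG, or its reverse complement CGTCTT, within 100 bp of the summit are printed. Each window is the summit base with the 100 bp on either side of it, plus strand, from the RefSeq copy of dm6. The core is in capitals. The windows are named by the gene with the nearest start site. The window nearest Jhbp1 is chr3R:4963961-4964161, between genes. The window nearest Tollo, a Toll family receptor gene, is chr3L:15254139-15254339, between genes and 18.6 kb from the start site. The window nearest MYPT-75D, a myosin phosphatase subunit gene, is chr3L:18629803-18630003 in its own intron. The window nearest CG1273 is chr3L:4263557-4263757 in the promoter. The window nearest zye is chr3L:20412411-20412611, between genes. The window nearest z, the zeste gene of a DNA-binding protein, is chrX:2448024-2448224 in the promoter. The window nearest CG31522 is chr3R:4458864-4459064 in an intron of that gene, and the window nearest drn is chr3R:9343237-9343437 in an intron of drn. Each window held 1 match. The offset of its base 3 from the summit ran from -97 bp nearest Jhbp1 to 59 bp nearest CG1273, and was 0 nearest drn.
Jhbp1: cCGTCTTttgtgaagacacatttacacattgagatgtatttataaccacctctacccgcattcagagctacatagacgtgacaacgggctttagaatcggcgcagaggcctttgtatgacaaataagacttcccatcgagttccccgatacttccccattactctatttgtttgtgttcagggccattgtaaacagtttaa
Tollo: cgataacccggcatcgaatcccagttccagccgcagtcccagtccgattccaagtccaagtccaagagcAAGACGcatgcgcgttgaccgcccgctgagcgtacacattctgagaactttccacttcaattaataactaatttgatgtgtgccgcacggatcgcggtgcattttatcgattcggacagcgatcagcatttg
MYPT-75D: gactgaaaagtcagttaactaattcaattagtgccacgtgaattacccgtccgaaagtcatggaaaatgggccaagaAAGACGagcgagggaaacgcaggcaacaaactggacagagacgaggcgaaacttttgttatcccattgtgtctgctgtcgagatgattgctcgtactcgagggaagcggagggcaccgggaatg
CG1273: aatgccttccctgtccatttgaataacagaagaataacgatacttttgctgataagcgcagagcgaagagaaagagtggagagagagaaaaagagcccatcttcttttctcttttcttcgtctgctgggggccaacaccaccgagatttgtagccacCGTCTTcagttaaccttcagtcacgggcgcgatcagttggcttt
zye: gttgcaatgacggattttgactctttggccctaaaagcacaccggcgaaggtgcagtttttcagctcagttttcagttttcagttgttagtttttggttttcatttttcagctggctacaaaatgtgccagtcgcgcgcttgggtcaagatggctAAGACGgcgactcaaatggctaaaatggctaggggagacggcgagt
z: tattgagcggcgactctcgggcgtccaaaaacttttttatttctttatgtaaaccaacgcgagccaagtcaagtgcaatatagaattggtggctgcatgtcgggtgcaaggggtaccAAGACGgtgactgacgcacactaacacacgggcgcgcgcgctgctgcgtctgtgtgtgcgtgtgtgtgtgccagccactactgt
CG31522: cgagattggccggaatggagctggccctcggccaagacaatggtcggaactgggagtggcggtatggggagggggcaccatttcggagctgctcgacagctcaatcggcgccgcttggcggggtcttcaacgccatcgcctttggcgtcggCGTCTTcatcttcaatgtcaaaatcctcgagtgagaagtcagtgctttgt
drn: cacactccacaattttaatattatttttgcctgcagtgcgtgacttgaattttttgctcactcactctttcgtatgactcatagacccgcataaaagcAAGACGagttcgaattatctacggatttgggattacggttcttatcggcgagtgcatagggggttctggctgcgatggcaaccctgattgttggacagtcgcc

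Over all recurrent outside peaks the core was in a minority of windows, and the 6-mer with the highest ratio of summit to flank share was another, CACCCC with its reverse complement GGGGTG. The windows of the 3 strongest recurrent outside peaks that hold it follow in the same form, with the same arm left out. CACCCC and GGGGTG are in capitals. The choice of this 6-mer was made after its values were seen. The window nearest CG31140 is chr3R:23965397-23965597 in an intron of that gene. The window nearest sim, the single-minded gene of a factor that specifies the ventral midline, is chr3R:13057375-13057575 in the promoter and holds GGGGTG at 3 places. The window nearest muc, a gene of the pyruvate dehydrogenase complex, is chr2L:7421033-7421233 in an intron of chm and holds it at 2 places.
CG31140: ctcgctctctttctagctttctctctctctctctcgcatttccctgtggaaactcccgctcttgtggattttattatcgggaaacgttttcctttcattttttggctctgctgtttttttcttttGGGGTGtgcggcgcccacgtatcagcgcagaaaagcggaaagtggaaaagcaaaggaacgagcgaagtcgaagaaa
sim: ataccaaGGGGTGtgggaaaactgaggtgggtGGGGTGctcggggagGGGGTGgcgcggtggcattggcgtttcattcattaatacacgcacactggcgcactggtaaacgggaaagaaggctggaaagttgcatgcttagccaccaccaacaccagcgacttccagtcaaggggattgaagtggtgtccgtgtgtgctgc
muc: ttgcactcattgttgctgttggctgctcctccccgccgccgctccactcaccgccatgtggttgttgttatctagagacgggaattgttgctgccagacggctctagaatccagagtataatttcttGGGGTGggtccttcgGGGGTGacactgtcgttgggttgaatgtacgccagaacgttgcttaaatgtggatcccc

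In the pooled list the recurrent outside peaks began where the optimal set ended, as the rule fixes. Their ranks, counted from the strongest, ran from 6217 to 29929 with a median of 12628, and 50% lay between 9339 and 16522. Their pooled signal, a value per peak from the authors' caller on a scale that is not stated, ran from 48.1 to 252.0 with a median of 138.7. The optimal set had a lowest signal of 252.0 and a median of 405.1, and the other outside peaks had a median of 69.6. At the signal threshold, the 3 strongest recurrent outside peaks had signals of 252.0, 251.9 and 251.8, and the 3 weakest of the optimal set had 252.1, 252.1 and 252.0. The edge of the optimal set therefore falls between peaks of nearly equal signal. At the distance threshold, the first 3 recurrent outside peaks with a largest summit distance of 150 bp had signals of 201.6, 200.9 and 180.2. The first 3 peaks that failed at 151 bp had 192.2, 183.0 and 178.0.

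In the single replicates most of these summits were of middle rank. The matched summit had a median rank of 13572 in replicate 1, 14486 in replicate 2 and 13684 in replicate 3, each out of 30000. For the optimal set the medians were 3129, 3234 and 3148, over the 6102, 6046 and 6121 peaks with a match. The 2 sets overlapped in rank but their middle 50% did not: the better quartile of the recurrent outside peaks was at rank 9459 or weaker in each replicate, and the poorer quartile of the optimal set at rank 5244 or stronger. The sets were parted by pooled signal, and the pooled reads come from these same replicates. A gap in replicate rank therefore follows from the choice of peaks. Of the 8769, 7555 (86.2%) were among the strongest 6215 of no replicate, 1083 of 1, 129 of 2 and 2 of all 3. The median of the largest of the 3 summit distances was 71 bp, and in 2708 all 3 were within 50 bp. Recurrence thinned with rank: 88.6% of the outside peaks ranked 6001 to 9000 qualified (95% exact binomial interval 87.2% to 89.8%), against 34.6% of those ranked 18001 to 21000 and 1.71% of those ranked 27001 to 30000. Among the other outside peaks, 7613 matched in 2 replicates, 4149 in 1 and 508 in none.

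**Figure D1:**
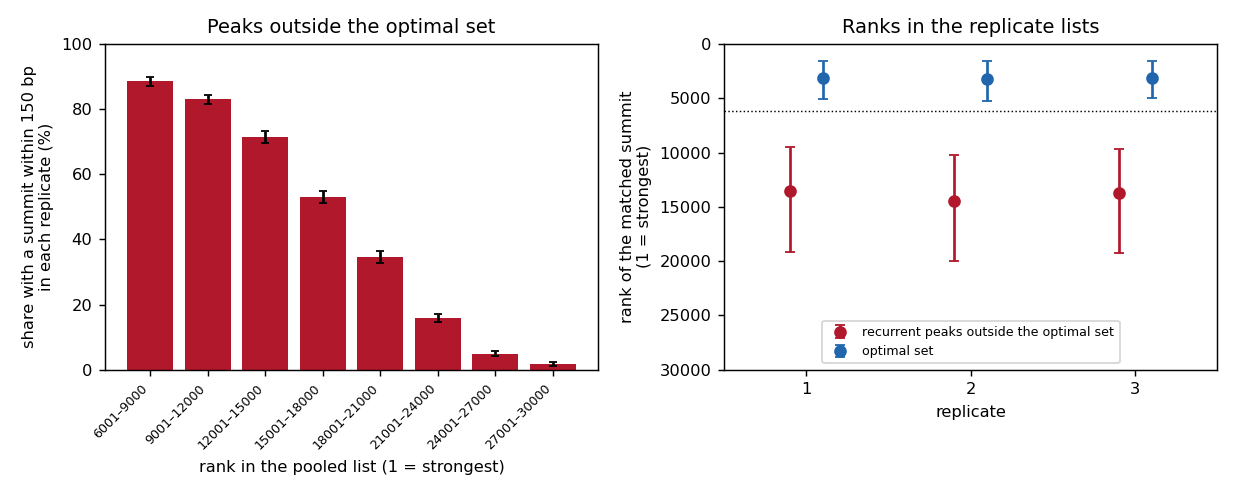
Left, the share of pooled peaks outside the optimal set that have a summit within 150 bp in each replicate, by bands of pooled rank, with exact 95% binomial intervals. Right, the rank of the matched summit in each replicate list for recurrent outside peaks and for the optimal set, as the median with bars over the middle 50%; the dotted line is rank 6215. The share falls from 88.6% to 1.71% across the bands. The median ranks of recurrent outside peaks, 13572 to 14486, lie far below those of the optimal set in every replicate, a gap that follows from the choice of peaks.

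The 12 strongest recurrent outside peaks lay in introns, at promoters and between genes. At Eip74EF, an Ets factor of the ecdysone response, the summit at position 17614175 of 3L ranked 5565, 7474 and 4177 in replicates 1 to 3. At trh, which specifies the trachea and salivary duct, the summit at 381247 of 3L ranked 4980, 6188 and 9056. At nej, the gene of the histone acetyltransferase CBP, the promoter summit at 9686020 of X ranked 14005, 4362 and 5971. Replicate 1 thus placed the nej summit far below the other 2. The promoter summit at -0.28 kb from the start of sim ranked 6164, 8972 and 6820. The other 8 of the 12 strongest were intergenic peaks nearest CG43815 and Cpr35B, a promoter peak at CG43736, and intron peaks in luna, jar, CG31140, chm and Rab9. Over the replicates the SD of their ranks ran from 1340.8 at CG31140 to 7920.2 in chm (n = 3). The summit nearest CG43815, the strongest of all in the pooled list, stood at 18077 in replicate 1 and at 6039 and 4402 in replicates 2 and 3. None of the 12 held the Prospero core within 100 bp. Ordered instead by mean rank over the replicates, a choice made after the values were seen, the first was in an intron of Antp, a Hox gene, at 6912843 of 3R, with ranks of 5618, 3617 and 7412 and a mean of 5549 ± 1898.4 (SD, n = 3).

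By annotation the recurrent outside peaks were most often intronic and less often at promoters than the optimal set. A promoter here is a summit within 500 bp of an annotated start site. Promoters held 25.0% of recurrent outside summits (2190; 95% interval 24.1% to 25.9%) and 33.3% of optimal summits, a difference of -8.35 percentage points (95% Newcombe interval -9.83 to -6.87). Introns held 45.7% against 42.1% (difference 3.64, 2.02 to 5.25), and intergenic DNA 24.3% against 20.3% (difference 4.01, 2.66 to 5.35). The intervals count peaks as independent, which neighbouring peaks are not. Smaller classes also differed: coding sequence held 1.13% against 0.579%, and 3′ UTRs 1.56% against 0.901%. Exons of 5′ UTRs away from a start site held 0.810% against 1.22%, and other exons held 1.45% against 1.54%, a difference whose interval includes 0.

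Against the other outside peaks, the shares in the 3 large classes were close. Promoters held 25.0% of the recurrent and 24.9% of the other outside summits (difference 0.109, -1.07 to 1.30), introns 45.7% and 45.5%, and intergenic DNA 24.3% and 23.2% (difference 1.15, -0.0125 to 2.32). Coding sequence set them apart, with 1.13% of recurrent and 2.48% of other outside summits (difference -1.35, -1.70 to -0.992). The close promoter shares rest on different ranks. Within bands of pooled rank, a split made after the values were seen, promoters held 31.0% of recurrent and 41.9% of other outside summits at ranks 6001 to 9000, and 26.3% and 47.9% at ranks 9001 to 12000. The recurrent share was the lower of the 2 in each of the upper 6 bands and the higher in the last 2, at 25.5% and 19.9%, then 24.5% and 19.2%. Among the recurrent outside peaks, the strongest 20% had 31.4% of their summits at promoters and the weakest 20% had 20.1%.

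**Figure D2:**
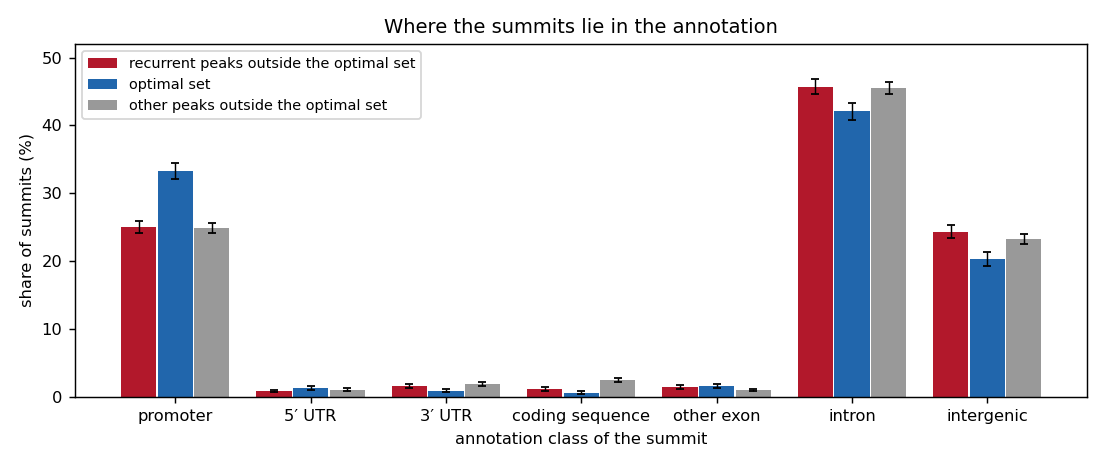
Share of summits in each annotation class for recurrent outside peaks, the optimal set and the other outside peaks, in percent, with exact 95% binomial intervals as bars. Recurrent outside peaks have 25.0% of their summits at promoters, against 33.3% in the optimal set and 24.9% in the other outside peaks, and 45.7% in introns.

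The distance to the nearest start site of a protein-coding gene shows the same shift. Its median was 2872 bp for recurrent outside summits and 1899 bp for optimal summits, and 36.5% and 29.3% lay over 5 kb away. For the other outside summits the values were 2787 bp and 36.1%. The sets differed just upstream of a start: 12.98% of recurrent outside summits and 19.5% of optimal ones lay within 500 bp upstream, while 9.58% and 9.72% lay within 500 bp downstream. Most of the recurrent outside peaks stood apart from the optimal set, at a median gap of 4431 bp, and 1418 (16.2%) were under 1 kb from it. Merged where they overlap, the 8769 made 8020 stretches, 7280 of them with a single summit and none with more than 3. Along the chromosomes, recurrent outside summits were 67.2 per Mb on X and from 60.9 to 70.6 on the long autosomal arms, against 40.3 and 46.2 to 49.4 for the optimal set. On chromosome 4, a small and largely heterochromatic chromosome, they were 37.1 per Mb (50 summits), against 53.4 (72 summits) for the optimal set. The ratio of recurrent outside to optimal peaks on 4 was thus below that on every other arm. Only 16 summits (0.182%) lay in an annotated transposable element.

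At genes, the recurrent outside peaks both added summits to genes already bound in the optimal set and reached genes with none there. A gene is called bound when a summit lies between its end and 1 kb upstream of its start. Of 13945 protein-coding genes, 2502 (17.9%) were bound in the optimal set and 3409 by a recurrent outside peak. Both held for 1260, and 2149 genes, 15.4% of all and 18.8% of the 11443 genes outside the optimal set, were bound only by recurrent outside peaks. Neither held for 9294. Gene length moves with these groups: the median region was 4.31 kb for the 2149, 7.81 kb for genes bound in the optimal set and 2.71 kb for genes bound by neither, and the part of length in the counts was not tested. The 2149 was 1327 when only gene bodies count and changed little when a summit must lie within 1 kb of a start site. With fewer peaks it was 1382 (the stronger 50%) and 803 (summits within 50 bp).

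At the genes bound only here the summits were mostly single and near the start site. Of the 2149 genes, 1549 had 1 summit, 412 had 2 and 188 had 3 or more, and 1470 (68.4%) had one within 500 bp of their own start. Neighbouring genes share summits: 1065 had a summit that lay in the region of no other protein-coding gene. Seen by summit, 2464 of the 8769 lay at a gene bound only here, 4245 at a gene with an optimal summit, 253 at both and 2313 at no gene region. Of the 2211 that lay at genes bound only here and at no optimal gene, 55.9% were promoter summits and 33.5% intronic. Of the 3992 at optimal genes alone, 15.9% were promoter summits and 78.4% intronic. By nearest start site in place of gene regions, the recurrent outside summits had 3608 nearest genes, of which 2029 were nearest to no optimal summit.

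The genes bound only here with the most summits had 7 to 13 each, in regions of 11.03 to 168.3 kb. First was spri (chrX:10490069-10585422), the gene of an effector of small GTPases, with 13 summits, all in no other gene's region, the strongest of which ranked 7027, 12755 and 7478 in the replicates. Samuel, CG46339, wb and Pde11 had 8 each; wb encodes a laminin alpha chain and Pde11 a cyclic nucleotide phosphodiesterase. The 7 summits of dnc lay in a region of 168.3 kb, and its strongest ranked 15075, 7570 and 9240. That gene encodes the cAMP phosphodiesterase known from learning. GATAe is short for this group, with 7 summits in a region of 11.03 kb (chr3R:16009105-16019133 and 1 kb upstream), 4 of them within 500 bp of a start of its own. It encodes a GATA factor of the endoderm and midgut, and its strongest summit ranked 6855, 9706 and 6262. Also with 7 summits were fng (24.6 kb), the glycosyltransferase that modifies Notch, and CG32365 (26.8 kb). All the genes of this group named here but GATAe also had 4 to 15 of the other outside peaks in their region.

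Ranked by their strongest summit, the genes bound only here began with CG31140, whose intron summit 2.32 kb inside the gene ranked 6641, 8916 and 6549. It was followed by Rab9, a GTPase of late endosome traffic, with 8559, 10153 and 4955, by CG13631 with 9437, 7213 and 5593, and by path, an amino acid transporter, with 6132, 5794 and 7247. The path summit was at 9505914 of 3L, -0.586 kb from the start, and path had 5 summits in all. The mannosidase gene alpha-Man-IIb had ranks of 7311, 6001 and 6765. Ranks varied little between replicates at path and alpha-Man-IIb (SD 760.3 and 658, n = 3) and widely at CG1827, with 10056, 16405 and 3614. Lmx1a, a LIM homeodomain gene (chr3L:12329232-12335901), had a single promoter summit with ranks of 4734, 8036 and 6582. Fum1 and ND-ASHI, genes of mitochondrial metabolism, share 1 summit between their divergent starts, with ranks of 10096, 14363 and 4633, and CG14879 completed the 10.

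The 10 genes with most recurrent outside summits overall were all bound in the optimal set too. Those named were chosen after the values were seen. The TALE homeodomain gene hth had 29 recurrent outside and 27 optimal summits, the cell adhesion gene kirre had 28 and 11, and luna had 23 and 4. At hth the counts were near equal, and at luna most summits lay outside the optimal set.

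Among 21 gene lists, the order of the shares bound only here depended on whether genes of the optimal set were counted. Over all genes of a list, to be read against 15.4% of all protein-coding genes, the share was 37.0% for ribosomal protein genes, 35.0% for tracheal and epidermal genes and 31.6% for glial genes. It was 8.0% for neuroblast and 8.70% for neuronal transcription factors, 6.90% for axon guidance and adhesion and 4.0% for the Notch pathway. The list of neuronal transcription factors also holds elav, which encodes an RNA-binding protein. Over the genes outside the optimal set, to be read against 18.8%, these peaks bound both of the 2 neuroblast factors left, 4 of 5 segmentation and Hox genes (80.0%), 7 of 9 tracheal and epidermal genes (77.8%) and 2 of 3 neuronal factors (66.7%). On that count they bound 7 of 11 sense organ genes (63.6%), 17 of 29 ribosomal protein genes (58.6%), 6 of 12 glial genes, 2 of 4 axon guidance genes and 1 of 5 Notch pathway genes. The optimal set left few genes in the neural and patterning lists, so that these shares rest on small counts. No test of the lists was made. In all, 81 of 493 distinct listed genes (16.4%) were bound only here, near the 15.4% of all protein-coding genes. That total includes the listed genes of the optimal set, and it was not computed without them. Over the genes outside the optimal set, the share was above 18.8% in every list but that of chemoreceptors and odorant binding proteins, at 4.0%.

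Of 25 neuroblast transcription factors, 23 were bound in the optimal set and only hb and ac were left to the recurrent outside peaks. The promoter summit at hb, the gap gene that opens the temporal series of neuroblasts, was at -0.043 kb from the start with ranks of 7451, 12206 and 12172. At ac, a proneural gene, it was at -0.028 kb with ranks of 16527, 11881 and 22076. Of 23 genes listed as neuronal transcription factors, elav included, 20 were in the optimal set and fru was bound by neither. The 2 bound only here were ftz and fd59A. The fd59A summit was weak, with ranks of 17120, 25399 and 29650. In the Notch pathway, 20 of 25 genes were in the optimal set and fng alone was added. Su(H) and H, the transcription factor and corepressor of the pathway, had no optimal, recurrent outside or other outside summit. Axon guidance and adhesion gave 25 of 29 in the optimal set and 2 added, beat-Ia with ranks of 7150, 7913 and 8164 and robo3 with 8692, 10943 and 8021. PlexA and PlexB had 1 other outside peak each. Of 28 segmentation and Hox genes, 23 were in the optimal set and 4 were bound only here. These were gt, ftz, hb and prd, each with its strongest summit within 500 bp of its start, from ranks of 16007, 8608 and 6837 at gt to 13821, 20217 and 12621 at prd. The maternal gene bcd had neither. Counted within 1 kb of a start site instead, the genes bound only here were 8 for segmentation and Hox, 5 for axon guidance and adhesion and 2 for the Notch pathway. That counting also gave 7 muscle and mesoderm, 6 cell cycle, 5 EGF receptor and MAP kinase and 4 neuronal RNA-binding protein genes, each over 1.5 times the count given below for that list.

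Among genes of neuronal function, 6 of 30 synapse, transmitter and channel genes were bound only here, 6 in the optimal set and 18 by neither. Syn, the synapsin gene, had a summit at -0.925 kb from its start with ranks of 5051, 16682 and 5442, so that replicate 2 placed it far lower. The sodium channel gene para had one in a 3′ UTR with ranks of 7783, 16539 and 9334. The acetylcholine receptor gene nAChRalpha1 and ple, which encodes tyrosine hydroxylase, followed, and dlg1 and VGlut were the other two. Syt1 and nSyb, of the vesicle fusion machinery, were bound by neither. Among 15 neuronal RNA-binding proteins 11 were in the optimal set, and Syp (ranks 7091, 14843 and 8884) and nito were added. Of 27 sense organ genes, 16 were in the optimal set and 7 were bound only here. The Iroquois genes ara (9264, 7416 and 5366) and caup (7405, 8386 and 7924), the proneural gene amos (4566, 14421 and 8801) and sens (6663, 8281 and 11134) led them, each within 500 bp of its start. The proneural gene ato was also among them, but at rank 29411 in replicate 2. 6 of 19 glial genes were bound only here and 7 in the optimal set. They were wrapper (8042, 14511 and 4274), Gs2 (7991, 7922 and 7842), repo, gcm2, drpr and mdy, and mdy encodes an enzyme of fat synthesis. The promoter summit at repo, the homeodomain gene of lateral glia, ranked 8201 and 7761 in replicates 1 and 3 and 28461 in replicate 2. Eaat1 and Cont had neither.

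Of 20 genes of asymmetric division 9 were in the optimal set and 5 were bound only here. They were polo (12869, 4397 and 10911), a mitotic kinase, Galphai (21418, 6710 and 8320) and par-6 (16262, 14999 and 3314), which act in spindle orientation and apical polarity, dlg1 and flr. Requiring no match in a given replicate is a looser rule that can only add genes to this count. It gave 10 without replicate 1, 6 without replicate 2 and 7 without replicate 3. The gene pins had 1 other outside peak and stau had 4. Of 29 cell cycle genes, 14 were in the optimal set and 3 were bound only here: CycB, with 2 summits and ranks of 5623, 8075 and 8784 for the stronger, polo, and Myc, with 5 summits. CycD and Cdk1 had neither. Of 20 tracheal and epidermal genes 11 were in the optimal set and 7 bound only here. The tracheal factor dysf had ranks of 11355, 6195 and 6914, the cuticle gene dy had 6733, 9059 and 7078, the chitin deacetylase gene verm had 3 summits, and dpy, a giant matrix protein gene, had 4 in a region of 137.8 kb beside 13 other outside peaks. The receptor gene btl, ple and serp made up the 7. GATAe, CCHa1 and Tk were 3 of 19 gut and enteroendocrine genes bound only here, and the Tk summit was weak, at 24207, 23611 and 28059.

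Of the 46 ribosomal protein genes on the list, which is a part of the family, 17 (37.0%) were bound only here. As many were in the optimal set. The first was RpS3A on chromosome 4 (chr4:65225-67207), with a summit 0.031 kb inside the start and ranks of 11804, 7519 and 4547. RpL9 had ranks of 6858, 5733 and 10506, and RpLP2 had 10068, 11406 and 5215. RpS15 had 10023, 7652 and 5763. For all 17 the strongest summit was a promoter summit, though at RpL26 and RpL7A it lay at -0.671 and -0.842 kb from their own start. RpL6 and RpL10 were bound by neither. These genes are short, with a median region of 2.43 kb. At the other end, Gr5a, the trehalose receptor, was the only one of 25 chemoreceptor and odorant binding protein genes bound only here. Its summit at -0.726 kb from the start, which also lay in the region of another protein-coding gene, ranked 6860, 8590 and 10508. The other 24 genes had neither kind. Without replicate 3 the count was 2, and with gene bodies alone it was 0. Of the remaining lists, blood and fat body genes had 4 of 20 bound only here (crq, Pvr, dl and lz), EGF receptor and MAP kinase genes 3 of 20 (csw, Ras85D and Dsor1), and germline genes 3 of 21 (bgcn, tud and otu). Chromatin regulators had 4 of 29, among them mor, Top2 and BEAF-32, muscle and mesoderm genes had 3 of 28 (Act57B, blow and twi), and Wnt, Hedgehog and BMP genes 2 of 25 (sax and Apc). As at Gr5a, every recurrent outside summit of Ras85D, Dsor1, otu, mor, BEAF-32, sax and Apc also lay in another protein-coding gene's region. The same held above for ac, Syp, nito, drpr, mdy, par-6, flr and Tk. The strongest summits at mor and sax lay at -0.728 and -0.714 kb from their own start.

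**Figure D3:**
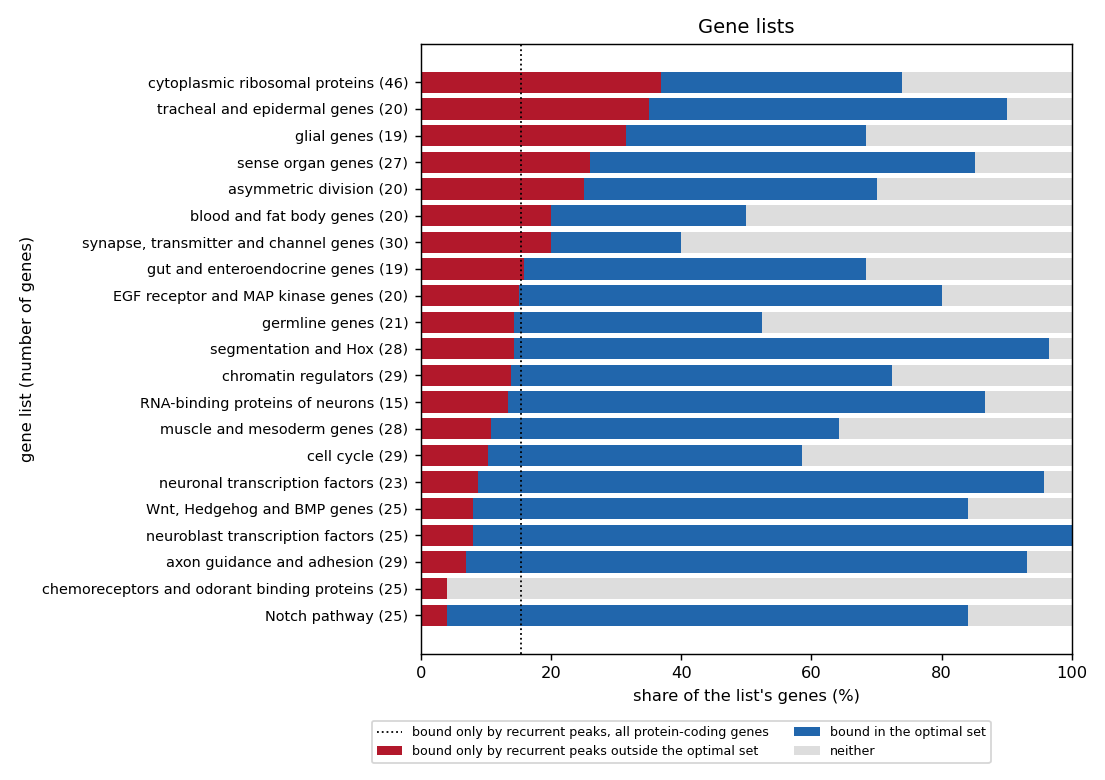
Share of each list's genes that were bound only by recurrent outside peaks, bound in the optimal set or bound by neither, in percent, with the number of genes beside the name and a dotted line at the 15.4% of all protein-coding genes bound only by recurrent outside peaks. Counted over all genes of a list, ribosomal protein genes are at the top with 37.0% and the Notch pathway and chemoreceptor lists at the bottom with 4.0%.

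The Prospero core AAGACG was more frequent at these summits than beside them, but less so than in the optimal set. It lay within 100 bp of 708 of 8769 recurrent outside summits (8.07%, 95% interval 7.51% to 8.66%), and in 4.94% of windows of the same width 500 bp to either side, a ratio of 1.63 (exact McNemar test, two-sided, the larger p of the 2 flanks, Benjamini-Hochberg adjusted over 11 motifs, p = 2.7e-16). Of all tiles of that width along the genome, 5.80% held it. In the optimal set the shares were 11.3% and 5.13%, a ratio of 2.20, and in the other outside peaks 6.54% and 5.19%, a ratio of 1.26. The recurrent share was below the optimal one (difference -3.21 percentage points, interval -4.19 to -2.24) and above that of the other outside peaks (difference 1.53, 0.816 to 2.25). The second difference was 0.601 (-0.0991 to 1.30) when no match in replicate 1 was required, a looser rule that adds peaks to the recurrent ones. Within each of the 8 bands of pooled rank its interval included 0. The difference was 2.81 (-1.002 to 5.47) at ranks 6001 to 9000, lowest at -0.113 (-2.12 to 1.87) at ranks 15001 to 18000, and highest at 3.93 (-1.915 to 15.51) at ranks 27001 to 30000, where 49 peaks were recurrent. Among recurrent outside peaks the core share was 8.44% in the strongest 20% and 7.81% in the weakest 20%, with overlapping intervals. It was 8.26% at promoters, 8.18% in introns and 7.49% between genes (adjusted p = 0.00065, 9.6e-08 and 0.00028 against flanks, by exact McNemar tests). By position, in bins of 20 bp from 40 bp before to 40 bp after the summit, core matches ran from 0.405 to 0.553 per peak and kb at recurrent outside peaks, 0.620 to 0.933 in the optimal set and 0.326 to 0.436 in the other outside peaks. Single bins did not always keep the outside peaks apart: from 0 to 20 bp after the summit the recurrent ones had 0.439 and the others 0.436, and from 60 to 80 bp 0.354 and 0.403.

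**Figure D4:**
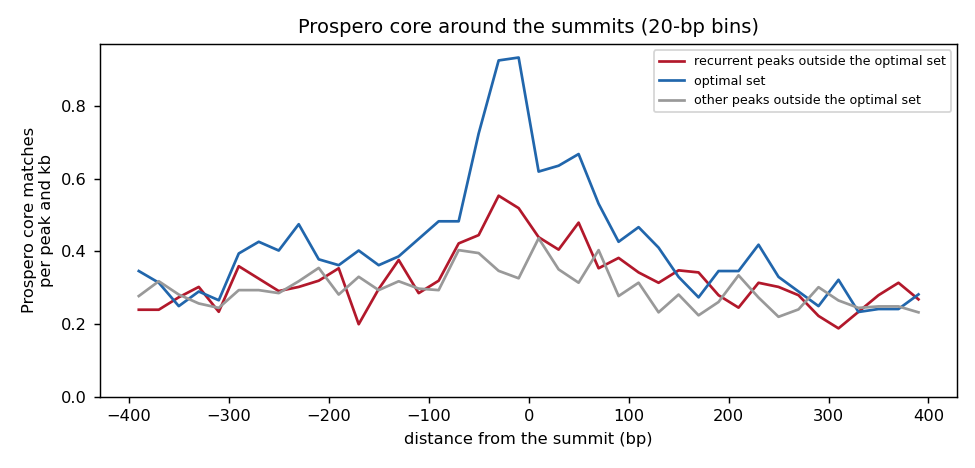
Matches to the Prospero core per peak and kb, in 20-bp bins of distance from the summit, for recurrent outside peaks, the optimal set and the other outside peaks. Within 40 bp of the summit the bins of recurrent outside peaks run from 0.405 to 0.553, below those of the optimal set at 0.620 to 0.933, while those of the other outside peaks, at 0.326 to 0.436, overlap them.

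Several motifs of other factors marked these summits as well. GAGAGA (reverse TCTCTC), bound by the GAGA factor, which opens chromatin, was in 12.95% of recurrent outside windows and 6.96% of flanks, a ratio of 1.86 (exact McNemar, adjusted p = 6e-33). Its share was 19.9% in the optimal set and 10.3% in the other outside peaks. ACCGGTT, known for Grainy head, an epidermal factor, had a ratio of 2.05 (1.52% of summits; exact adjusted p = 1.5e-05), against 1.61 in the optimal set, and the difference in share between the 2 sets included 0 (0.0364, -0.370 to 0.425). CAGGTAG, of the early activator Zelda, had 1.77 (adjusted p = 0.00019), CACGTG 1.62 (4.2e-06) and CAGCTG, a proneural E-box, 1.31 (1.5e-05), all by the same exact test. CAGGTG of the Snail family (0.952), AGATAA of GATA factors (0.9504), TGGGAA, a core of Su(H) sites (1.09), and TATCGATA of DREF (1.39) did not pass over all summits, with adjusted p from 0.11 to 0.98 by the exact test. Each match is a description of letters and not of binding.

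The motifs of M1BP and DREF were rare but more frequent in recurrent outside peaks than in the optimal set. GAGAGA went the other way, at 12.95% against 19.9%, though it was in 16.7% of recurrent outside promoter summits and 7.65% of their flanks. GGTCACAC, known for M1BP, a factor of housekeeping promoters that include ribosomal protein genes, was in 0.969% of recurrent outside windows and 0.563% of optimal windows (difference 0.406, 0.1197 to 0.683). The other outside peaks had 1.05%. Split by place after the values were seen, it was in 2.92% of promoter summits, with 0.959% in their flanks (ratio 3.05, exact McNemar, adjusted p = 4.3e-05), and in 0.319% of summits elsewhere (ratio 0.824, adjusted p = 0.80, exact). TATCGATA, of the housekeeping factor DREF, was in 2.51% of promoter summits against 1.26% of their flanks (ratio 2.00, exact adjusted p = 0.047). Over all recurrent outside windows it was in 0.878%, against 0.531% in the optimal set and 1.28% in the other outside peaks. The optimal set was not split by place, so promoter summits of both sets were not compared. The Zelda, Grainy head, CACGTG and TGGGAA motifs passed at summits away from promoters and not at promoters, with ratios of 1.93, 2.33, 1.76 and 1.12 away from them (exact McNemar, largest adjusted p = 0.018) and 1.43, 1.51, 1.25 and 0.949 at promoters. The difference between places was not tested.

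**Figure D5:**
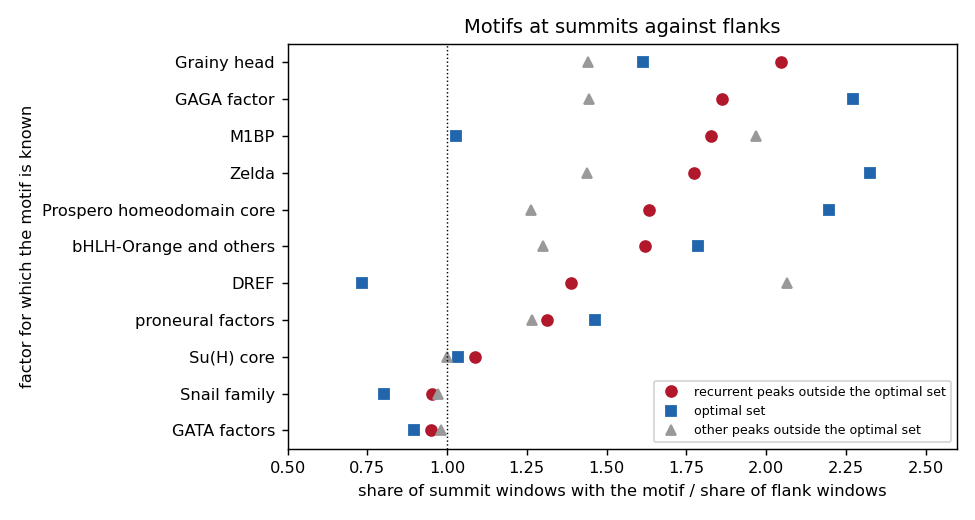
Ratio of the share of summit windows to the mean share of flank windows that hold a motif, for 11 motifs named by the factor they are known for, in recurrent outside peaks, the optimal set and the other outside peaks; the dotted line marks 1. The Prospero core stands at 1.63 in recurrent outside peaks, between 2.20 in the optimal set and 1.26 in the other outside peaks, and M1BP at 1.83, 1.03 and 1.97.

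Across all distinct 6-mers, a large part of the sequence differed between summit and flank, so a single ratio says little alone. By the same exact McNemar test 749 (36.0%) were higher at recurrent outside summits and 505 (24.3%) lower, at an adjusted p under 0.05. The windows held 45.2% G and C at the summit and 39.8% in the flanks. The core ranked 91st by ratio, above its 59 rearrangements of the same bases, which had a median of 1.13 and a highest of 1.57. First was CACCCC, in 13.6% of summits (1193; interval 12.9% to 14.3%) and 4.62% of flanks, a ratio of 2.94 (exact, adjusted p = 2.1e-84). The 5 other 6-mers with its bases had a median ratio of 1.73, and all 192 with 5 G or C had 1.42. It also had the highest ratio of all 6-mers in the optimal set, at 3.19, with 17.7% of summits, and in the other outside peaks, at 2.01, with 10.1% of summits. At recurrent outside summits CACCCC was less frequent in promoters (7.85%) than in introns (14.3%) or between genes (17.6%), with intervals that do not overlap. ACCCCC (2.61), ACCCCT (2.34), CCCCTC (2.31) and CCACCC (2.28), which overlap it, came next by ratio. Lowest was TTTAAA, in 11.2% of summits and 22.6% of flanks (ratio 0.495, exact adjusted p = 4e-76).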

How the data were processed

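Prospero-GFP ChIP-seq of 3 biological replicates was analysed from deposited peak lists in narrowPeak format on dm6: 1 per replicate, 1 on pooled reads and the optimal set, which the deposited file descriptions say was obtained by an irreproducible discovery rate (IDR) threshold. Per the labels, chromatin was sonicated to 200 to 800 bp. The age label holds a number that cannot be that of an embryo, so the age was read from the source names. The antibody label reads pros where the descriptions name anti-GFP. The sources used here name no aligner, caller or filter. The signal of a peak and its −log10 q-value are the authors' deposited values; signal was used only to rank and describe peaks within a list and the −log10 q-value entered no result. Read counts are not part of the lists, which leaves depth unknown, and every list but the optimal set has 30000 peaks whatever the depth.

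Peaks, genes and 6-mers are not replicates of a condition, and intervals (exact binomial for shares, Newcombe for differences, 95%) cover counting error only. Genes came from Ensembl release 115 of the same assembly (13920 of 13921 protein-coding genes found in RefSeq too had the same coordinates), and sequence from RefSeq. A summit took the first class that applied, promoter before UTRs, then coding sequence, other exons and introns, with protein-coding and ncRNA genes counted, a choice made to match an earlier account of these data. Presence of a motif on either strand within 100 bp of the summit was set against windows 500 bp to either side by exact McNemar tests. The larger p was kept, with Benjamini-Hochberg adjustment over 11 motifs and over all 6-mers. Tests of motifs split by place were adjusted over the 11 motifs at promoters and elsewhere together. Tests of the core by class were adjusted over all annotation classes. The threshold was an adjusted p of 0.05. The code was tested on simulated data. Named were the 12 strongest peaks, the 10 genes with most summits and the 10 with the strongest, up to 4 bound and 2 unbound genes a list, and the peaks at each threshold; others are marked as chosen after their values were seen, and a list's further bound genes are named where it has few. Not every gene that this rule names is reported here, the unbound ones above all. Of the listed names, 18 were matched through older symbols and RpL37a was not matched. The members and lists were chosen with earlier results of these data known. The alternatives tried are given in the closing section. Work used Python 3.11.15, pandas 2.3.3, SciPy 1.17.1, statsmodels 0.14.6 and matplotlib 3.10.9.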

Additional observations from a re-analysis of the deposited data

How the results depend on the processing

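With summits within 50 bp, the recurrent outside peaks numbered 2708, their promoter share was 24.0%, the genes bound only by them 803 and the 6-mers higher at summits 441. The promoter share was 28.5% in the stronger 50% and 34.1% with promoters reaching 1000 bp from a start site, while the optimal set stayed higher in each alternative (differences of -10.3 to -4.84 percentage points). The genes bound only by them were 1327 with bodies alone, of which 1166 were among the 2149, and 1382 with the stronger 50%. Flanks at 1000 bp gave 409 higher 6-mers in place of 749. Leaving out replicates 1, 2 and 3 in turn gave 11035 to 11613 peaks and 2454 to 2675 genes. A match was then required only in the remaining replicates, so that peaks and genes could only be added. Without replicate 1 the interval of the core share against the other outside peaks included 0 (0.601), and over the 3 omissions the difference ran from 0.601 to 1.86; the cause was not tested. The Prospero core stayed above its flanks in all 9 alternatives, at ratios of 1.43 to 1.93 (largest exact McNemar adjusted p 2.9e-05). Of 90 values for the other motifs, 81 kept their call, 5 lost it and 4 gained it. Losses were GGTCACAC with the narrower window (ratio 1.71, against 1.83 as reported), with summits within 50 bp (2.1) and in the stronger 50% (1.57), and CAGCTG (1.27, against 1.31) and ACCGGTT (1.71, against 2.05) with summits within 50 bp, where fewer peaks were tested. Gains were TATCGATA with flanks at 1000 bp and without replicates 1 or 2, and TGGGAA without replicate 2. Of 147 counts over gene lists, 32 moved by over 1.5 times, among them ribosomal protein genes, with 9 in place of 17 when summits must lie within 50 bp. Counting all RNA genes, an alternative chosen after seeing the data, gave a promoter share of 25.5%. No paired analysis was possible because there is a single group. Depth, which the lists do not hold, limits whether a weak peak missing in a replicate was absent or not detected.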
